A study of Mus musculus with 2 samples.

Results

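The cells described here were lipid-associated macrophages (LAMs) of the liver of 2 mice fed CDA-HFD, a high-fat diet that lacks choline and gives its amino acids in defined form, chosen by the genes counted in each cell. A cell was taken as a LAM when at most 25% of its counts were mitochondrial, when it had a count above 0 for at least 4 of the 7 markers Spp1, Gpnmb, Mmp12, F7, Emp1, Gdf15 and Fabp5, when Cd5l and Cd209a were both at 0, and when at most 1 of Tmem119, Olfml3 and Pf4 had a count. This choice took 557 of the 12071 cells of the 2 mice, or of 15384 cells in the whole data set of 4 mice. The levels of these 12 genes in the LAMs follow from the choice and are given as a description.

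Each group was 1 mouse: a normal diet (ND) Egr2fl/fl mouse, an ND Lyz2Cre/+.Egr2fl/fl mouse, a CDA-HFD Egr2fl/fl mouse and a CDA-HFD Lyz2Cre/+.Egr2fl/fl mouse. All 4 mice carried the floxed Egr2 alleles, and the Lyz2Cre/+ mice also carried a Cre gene knocked into the Lyz2 locus, which is active in monocytes, macrophages and neutrophils and not in LAMs alone. The CDA-HFD-fed mice were males that received the diet for 7 weeks from an age of 6 to 12 weeks. Liver leukocytes were sorted as CD45.2+ CD11b+ cells without CD90.2, B220, NK1.1 or Siglec-F, marked with a hashtag per mouse and measured in 1 pooled run. With 1 mouse per group no test between groups was possible, no p-value is given, and the genotype cannot be told apart from the individual mouse. The 95% intervals printed with shares, levels and ratios cover counting error only.

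LAMs are macrophages that gather where lipid-laden or dying cells are cleared, in steatotic liver and in obese fat. They are known for the lipid receptor Trem2, for lysosomal and lipid-handling genes and for secreted matrix factors such as osteopontin, the product of Spp1. In fatty liver disease they arise largely from Ly6Chi blood monocytes, while resident Kupffer cells, which carry Cd5l, Clec4f, Vsig4 and Timd4, are reduced. Egr2 is a zinc finger transcription factor of the early growth response family, and its part in the formation of these macrophages was the question behind the genotypes.

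LAMs by this choice made up 5.61% of the cells of the CDA-HFD Egr2fl/fl mouse (330 of 5885, interval 5.03% to 6.23%, Clopper-Pearson) and 3.67% of those of the CDA-HFD Lyz2Cre/+.Egr2fl/fl mouse (227 of 6186, 3.21% to 4.17%). The share was lower by 1.94 percentage points in the Lyz2Cre/+.Egr2fl/fl mouse (difference -1.94, Newcombe interval -2.71 to -1.18). Among cells that either met this choice or had counts for at least 3 of 6 macrophage genes, among them C1qa, C1qb, C1qc, Adgre1 and Apoe, the LAM shares were 15.4% (13.9% to 17.0%) of 2142 cells and 8.94% (7.86% to 10.1%) of 2538 cells. Under the same gene conditions 2 of 1723 cells of the ND Egr2fl/fl mouse (0.116%, 0.0141% to 0.419%) and 1 of 1590 cells of the ND Lyz2Cre/+.Egr2fl/fl mouse (0.0629%, 0.00159% to 0.350%) qualified. The CDA-HFD-fed mouse thus exceeded the ND-fed mouse of its genotype by 5.49 points (4.84 to 6.12) in Egr2fl/fl and by 3.61 points (3.07 to 4.11) in Lyz2Cre/+.Egr2fl/fl. These are shares of sorted cells, in which a larger number of LAMs cannot be told apart from a smaller number of the other cells.

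**Figure D1:**
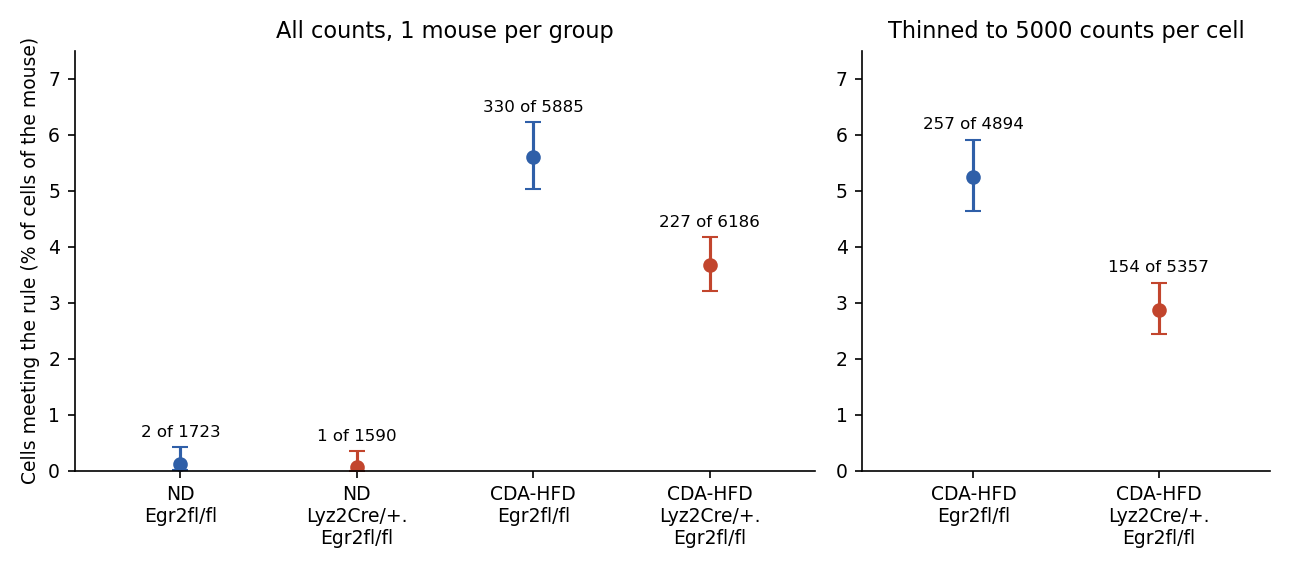
Share of each mouse's cells (percent, vertical axis) that met the LAM choice, with exact 95% binomial intervals as bars, over all counts at the left and after thinning every cell to 5000 counts at the right. The 2 ND-fed mice lie below 0.5%, and the CDA-HFD Egr2fl/fl mouse lies above the CDA-HFD Lyz2Cre/+.Egr2fl/fl mouse in both panels (5.61% and 3.67%, then 5.25% and 2.87%).

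LAMs held more counts than the average sorted cell. Their median was 24153.5 counts per cell in the CDA-HFD Egr2fl/fl mouse and 21612 in the CDA-HFD Lyz2Cre/+.Egr2fl/fl mouse, against 13168 and 13476.5 over all cells of these mice, and 8330480 and 5225168 counts stood behind the summed levels of the 2 sets of LAMs. After every cell was thinned to 5000 counts, and 991 and 829 shallower cells were left out, 257 of 4894 cells (5.25%, 4.64% to 5.91%) and 154 of 5357 cells (2.87%, 2.44% to 3.36%) met the choice, a difference of -2.38 points. Median mitochondrial shares were 2.16% and 2.25%, and the mouse's own hashtag made up a median of 95.2% and 95.5% of a LAM's hashtag counts. No barcode number was given to more than 1 mouse, and 36 LAMs had over 3 times the median counts of their mouse, a range in which doublets of 1 mouse would fall.

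The number of markers per LAM differed between the 2 mice. In the CDA-HFD Egr2fl/fl mouse 154 LAMs had 4 markers, 107 had 5, 54 had 6 and 15 had all 7. In the CDA-HFD Lyz2Cre/+.Egr2fl/fl mouse the numbers were 135, 67, 24 and 1. Just outside the choice, 256 and 214 cells had 3 markers and met every other condition, with median counts of 17855.5 and 18212.5, against 21275.5 and 19889 in the cells with 4 markers. Gpnmb stood at 363 CPM (the gene's share of the group's summed counts, scaled to a total of 1000000) over the cells with 3 markers and at 1073 CPM over the LAMs, and F7 at 29.4 and 124 CPM.

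The label was checked against genes that the choice did not use. The LAMs carried Trem2 in 96.6% of cells, Cd9 in 94.1%, Cd63 in 93.4%, the lipoprotein lipase gene Lpl in 94.3%, the lipid droplet coat gene Plin2 in 95.7%, and the galectin gene Lgals3 and the cathepsin gene Ctsd in all cells. Over all cells of the Egr2fl/fl and Lyz2Cre/+.Egr2fl/fl mice on CDA-HFD these shares were 45.8% and 52.5% for Trem2. They were 61.4% and 59.5% for Cd9, 36.9% and 35.6% for Cd63, and 42.3% and 48.1% for Lpl. Plin2 was found in 58.8% and 60.5%, Lgals3 in 87.8% and 88.9%, and Ctsd in 79.6% and 82.9%. LAMs also held more counts per cell, which raises such shares. The macrophage condition of 3 of 6 genes was met by 275 of 330 LAMs (83.3%) and 189 of 227 LAMs (83.3%). Trem2, often used to name these cells, stood at 942 CPM in LAMs, at a like level in 348 macrophages with Cd5l (928 CPM) and 884 macrophages with Tmem119 (1020 CPM, at least 2 of Tmem119, Olfml3 and Pf4), and at 270 CPM in 260 macrophages with Slc7a11 (all of Slc7a11, Srxn1 and Il1rn, and fewer than 4 markers). Other genes known of LAMs were found in fewer cells, such as Itgax, which encodes CD11c, in 60.3% (71.8% in the CDA-HFD Egr2fl/fl mouse and 43.6% in the CDA-HFD Lyz2Cre/+.Egr2fl/fl mouse), Fabp4 in 50.6% and Atp6v0d2 in 14.7%. The Kupffer genes Timd4 at 1.62 CPM, Vsig4 at 2.58 CPM and Clec4f at 3.02 CPM were near 0 in the LAMs. The whole list of 16 Kupffer genes was not absent. It summed to 879 and 917 CPM in the LAMs of the 2 mice, against 1180 and 1217 CPM over all their cells, most of it Id3 (671 and 600 CPM), with counts for 16 and 14 genes and Clec4f and Fcna at 0 in the Lyz2Cre/+.Egr2fl/fl mouse.

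Markers of most other cells were lower in LAMs than over all cells, and those of hepatocytes were higher. Summed over 10 T and NK cell genes the LAMs held 3.84 CPM in the CDA-HFD Egr2fl/fl mouse and 1.53 CPM in the CDA-HFD Lyz2Cre/+.Egr2fl/fl mouse, with Cd3e at 0 in both, against 40.8 and 33.4 CPM over all cells. Of the 10 neutrophil genes 8 had counts in each mouse, Ngp and Camp being at 0 in both, and the sum was 407 and 277 CPM, against 5119 and 5208 CPM over all cells. LAMs with counts for at least 3 of these neutrophil genes numbered 32 (9.70%) and 12 (5.29%), against 22.1% and 19.3% of all cells. Of 9 hepatocyte genes 8 had counts, summing to 362 and 311 CPM, most of it Trf (320 and 264 CPM), a transferrin gene, while Alb was at 0. Over all cells the sum was 294 and 275 CPM. LAMs with counts for at least 3 hepatocyte genes numbered 25 (7.58%) and 18 (7.93%), against 2.19% and 2.78% of all cells. Endothelial genes summed to 21.8 and 27.4 CPM over 8 of 8 genes (46.1 and 79.7 CPM over all cells), B and plasma cell genes to 28.4 and 35.6 CPM over 4 of 8 (87.8 and 124 CPM), and stellate cell and fibroblast genes to 12.5 and 9.95 CPM over 7 and 5 of 8 (15.3 and 19.1 CPM). The part of these transcripts in the LAM values was not tested.

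Among the 7 markers the 2 mice differed in the order of levels and in how many LAMs carried each gene. Mmp12, a macrophage elastase gene, had counts in 44.2% of LAMs of the CDA-HFD Egr2fl/fl mouse and 25.1% of those of the CDA-HFD Lyz2Cre/+.Egr2fl/fl mouse, and its level was 955 and 609 CPM (ratio 0.638, 0.612 to 0.665). In the LAMs that carried Mmp12 its median was 1025 and 1100 CPM, so the sums differed while the level per positive cell was close. Spp1 showed the other arrangement, with counts in 68.2% and 70.0% of LAMs, a median of 486 and 502 CPM in the cells with a count, and an upper quartile of 1646 and 2255 CPM. The summed Spp1 level was 902 and 1450 CPM (ratio 1.61, 1.56 to 1.66), against a ratio of 0.999 in all other cells of the 2 mice. Mmp12 values below 5 counts do not occur in the files, so a cell with few Mmp12 counts is listed at 0.

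Emp1, which encodes an epithelial membrane protein, was the other marker that was higher in the Lyz2Cre/+.Egr2fl/fl LAMs. It had counts in 68.5% and 83.3% of LAMs and stood at 234 and 386 CPM (ratio 1.65, 1.55 to 1.76). Fabp5, a fatty acid carrier, was found in 92.4% and 91.2% of LAMs at 1449 and 888 CPM (ratio 0.613, 0.592 to 0.634). F7, which encodes coagulation factor VII, was found in 47.9% and 37.4% at 148 and 85.4 CPM (ratio 0.578, 0.517 to 0.644). Gpnmb, a lysosomal glycoprotein gene, at 1149 and 950.6 CPM, and Gdf15, a stress-induced cytokine gene, at 400 and 330 CPM, differed by ratios of 0.827 and 0.825. The lower levels were not confined to LAMs. Over all cells of the 2 mice, LAMs among them, Mmp12 stood at 209 and 90.8 CPM and Gdf15 at 119 and 59.5 CPM. Fabp5 stood at 398 and 253 CPM, Gpnmb at 279 and 207 CPM, F7 at 23.0 and 11.2 CPM, and Emp1 at 57.1 and 65.7 CPM.

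LAMs held a small share of the cells and a large share of these markers' counts. They supplied 62.9% of all F7 counts of the CDA-HFD Egr2fl/fl mouse and 44.0% of those of the CDA-HFD Lyz2Cre/+.Egr2fl/fl mouse, 44.6% and 38.9% of Mmp12, 40.3% and 26.6% of Gpnmb, and 30.9% and 29.0% of Spp1. Over all cells of a mouse F7 reached 3.0 CPM (ND Egr2fl/fl), 2.08 CPM (ND Lyz2Cre/+.Egr2fl/fl), 23.0 CPM (CDA-HFD Egr2fl/fl) and 11.2 CPM (CDA-HFD Lyz2Cre/+.Egr2fl/fl). Spp1 reached 10.5, 7.22, 285 and 290 CPM in the same order, so that both genes were higher in each CDA-HFD-fed mouse than in the ND-fed mouse of its genotype. In a sum over all cells, more LAMs and more transcript per LAM cannot be told apart.

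**Figure D2:**
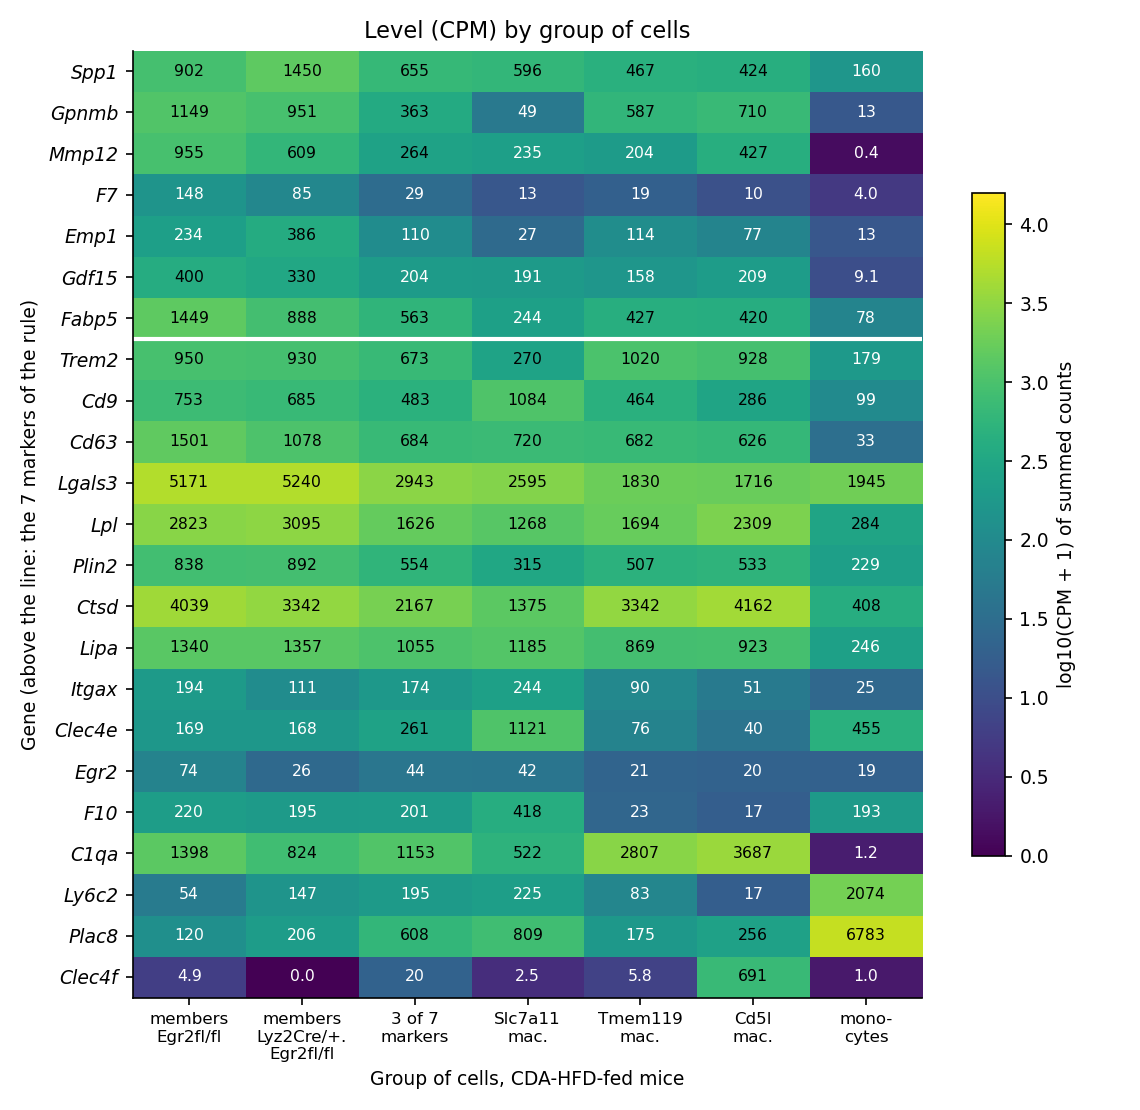
Levels in CPM of summed counts (printed in each cell, color on a log10 scale) of the 7 markers, above the white line, and of 16 other genes, below it, in the LAMs of each CDA-HFD-fed mouse ("members") and in 5 other groups of cells of both CDA-HFD-fed mice. F7 is at 148 and 85.4 CPM in the LAMs, 29.4 CPM in cells with 3 markers and 18.7 CPM or less in the other groups, whereas F10 is also high in monocytes (193 CPM) and in macrophages with Slc7a11 (418 CPM).

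F7 lies next to F10, the gene of coagulation factor X, the substrate of factor VIIa, on chromosome 8 of the mouse genome (GRCm38, both on the plus strand). F7 spans chr8:13026034-13035809 and F10 chr8:13037308-13056676, with 1498 bases and no protein coding gene between them. F10 was not used by the choice. It stood at 220 and 195 CPM in the LAMs of the CDA-HFD Egr2fl/fl and the CDA-HFD Lyz2Cre/+.Egr2fl/fl mouse and at 16.7 CPM in macrophages with Cd5l, a ratio of 12.6 (10.8 to 14.8) over both mice, 9.77 in the Egr2fl/fl and 15.4 in the Lyz2Cre/+.Egr2fl/fl mouse. The 2 neighbors were not alike in monocytes, where F10 stood at 193 CPM and F7 at 3.97 CPM. Among the flanking genes Mcf2l, upstream, stood at 6.84 and 6.89 CPM in the LAMs of the 2 mice, 2.67 times its level in the macrophages with Cd5l, and this ratio was 1.47 for Pcid2, 0.90 for Cul4a and 0.876 for the lysosomal gene Lamp1, all 3 downstream. The 250 bases before the RefSeq start of each of these neighbors, at chr8:13025784-13026033 for F7 and chr8:13037058-13037307 for F10 (GRCm38.p6, plus strand, read 5′ to 3′), are shown with those before the first start of Emp1 at chr6:135362681-135362930, where capitals mark AP-1 motifs:
F7: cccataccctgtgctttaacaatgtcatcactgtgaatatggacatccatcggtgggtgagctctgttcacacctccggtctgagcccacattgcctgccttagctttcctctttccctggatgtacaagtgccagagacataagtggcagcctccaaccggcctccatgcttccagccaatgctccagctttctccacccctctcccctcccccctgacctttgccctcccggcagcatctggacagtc
F10: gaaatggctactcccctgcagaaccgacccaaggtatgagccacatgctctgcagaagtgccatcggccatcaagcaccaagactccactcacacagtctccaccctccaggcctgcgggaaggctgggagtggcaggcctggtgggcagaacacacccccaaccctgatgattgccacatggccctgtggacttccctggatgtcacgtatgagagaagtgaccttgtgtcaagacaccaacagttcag
Emp1: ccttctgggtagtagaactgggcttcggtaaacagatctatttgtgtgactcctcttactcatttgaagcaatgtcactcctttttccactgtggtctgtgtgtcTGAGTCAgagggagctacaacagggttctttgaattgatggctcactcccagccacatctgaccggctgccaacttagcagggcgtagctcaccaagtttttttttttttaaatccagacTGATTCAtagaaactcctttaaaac

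Starts were found in the RefSeq promoter table for 7 of the 8 genes looked for (the 7 markers and F10), at 11 starts in all. On both strands of the 250 bases before each start, the AP-1 motif TGANTCA was sought, which 6.75% of 32851 such windows hold, with the Egr motif GCGNGGGCG (4.70%) and the E-box CACGTG (6.02%). Emp1 held 2 AP-1 matches before its first start, Mmp12 held 1 before its second start, and Gdf15 held 1 E-box before its second start. No place matched more than 1 of these motifs. F7 and F10 held none of them, and the Egr motif was in none of the 11 windows, which says only that these letters are not in these windows.

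Against the macrophages with Cd5l (348 cells of the 2 mice with a count of Cd5l, a Kupffer cell gene, no count of Cd209a and at least 3 of the 6 macrophage genes), LAMs showed more of the matrix and redox genes and less of the Kupffer, interferon and cell cycle genes. Of 9773 genes with at least 100 counts, 265 (2.71%) were at least 2-fold higher in LAMs and 509 (5.21%) at least 2-fold lower, with the same direction in each mouse. The choice used the counts of these very cells, so these ratios are a description. Over both mice together, the cathepsin gene Ctsk at 52.5 and 6.52 CPM (ratio 8.04) and the syndecan gene Sdc1 at 56.0 and 7.51 CPM (7.45) came after F10. The order differed between the mice, with ratios of 16.3 in the Egr2fl/fl and 4.88 in the Lyz2Cre/+.Egr2fl/fl mouse for Ctsk, and of 4.79 and 12.7 for Sdc1. Anxa1, the gene of annexin A1, stood at 481 and 67.3 CPM (7.15, 6.61 to 7.75), with ratios of 5.44 in the Egr2fl/fl and 9.01 in the Lyz2Cre/+.Egr2fl/fl mouse. They were followed by Ptgr1 (6.95), the calcium-binding S100a6 (889 and 142 CPM, 6.24), the heparanase gene Hpse (6.17), the cystine transporter Slc7a11 (6.08), Gm42674 (5.85), Ass1 (5.62), S100a4 (1108 and 200 CPM, 5.54) and Ly6c2 (5.40), the last of which belongs to a family of similar genes. By mouse the ratio was 10.8 and 4.51 for Slc7a11 and 2.42 and 11.6 for Ly6c2.

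By list, 8 of 17 LAM genes outside the choice were at least 2-fold higher than in the macrophages with Cd5l and none lower (median ratio 1.91, against 0.966 over all genes tested). They included Cd9 (727 and 286 CPM, 2.54), Lgals3 (5198 and 1716 CPM, 3.03) and Itgax (162 and 51.3 CPM, 3.15). Of 14 matrix and protease genes 8 were higher and 1, Mmp13, lower (median 2.36), with the fibronectin gene Fn1 at 163 and 41.5 CPM (3.92) and Mmp19 at 72.4 and 23.4 CPM (3.09). Of 12 Nrf2 and redox genes 6 were higher (median 2.01), with the sulfiredoxin gene Srxn1 at 119 and 46.1 CPM (2.59) and the peroxiredoxin gene Prdx1 at 4890 and 2217 CPM (2.21). Of 21 lysosome genes 1, Ctsk, was higher (median 1.02), and of 18 lipid uptake, storage and efflux genes 2 were higher, Olr1 and Fabp4, and 2 lower, the cholesterol exporter Abca1 (50.9 and 131 CPM, 0.388) and Scarb1. Most lysosome and lipid genes were thus within 2-fold of their level in these macrophages.

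Genes lower in LAMs were led by Kupffer genes. Of 16 Kupffer cell genes 14 were at least 2-fold lower (median 0.0677), led by Clec4f at 3.02 and 691 CPM, Fcna at 1.25 and 242 CPM and Vsig4 at 2.58 and 377 CPM, 3 genes whose low counts do not occur in the files, so that a cell with few counts is listed at 0. Gm49391 (2.07 and 59.2 CPM), the formyl peptide receptor gene Fpr1 (7.01 and 161 CPM), Clec1b (16.8 and 386 CPM), Ctla2b (4.13 and 85.3 CPM) and Dmpk (8.34 and 161 CPM) completed the lowest 8. The ratios differed between the mice. In the Egr2fl/fl mouse they were 0.00861 for Clec4f, 0.00796 for Fcna and 0.0132 for Vsig4. In the Lyz2Cre/+.Egr2fl/fl LAMs Clec4f and Fcna were listed at 0, for which no ratio is given, since low counts do not occur in the files, and Vsig4 stood at 0.00253. For the other 5 the ratio was 0.0204 and 0.0561 (Gm49391), 0.0543 and 0.0470 (Fpr1), 0.0515 and 0.0244 (Clec1b), 0.0308 and 0.0755 (Ctla2b), and 0.0480 and 0.0571 (Dmpk) in the same order of mice. Of 10 interferon genes 7 were lower (median 0.315) and of 10 proliferation genes 9 were lower (median 0.262), with Mki67 at 7.16 and 33.2 CPM. A list of 86 LAM marker genes that came with the study, whose text states another length for it, had 51 of 80 tested genes higher and 0 lower (median 2.26). Of a published signature of scar-associated macrophages, a related cell state, 9 of 39 were higher and 0 lower (1.36).

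Against 1474 Ly6Chi monocytes (counts for at least 3 of Ly6c2, Ccr2, Vcan and Chil3, and at most 2 of the macrophage genes and of the markers), LAMs held more of the macrophage, lipid and lysosome genes and less of the monocyte genes. Of 10290 genes 820 (7.97%) were at least 2-fold higher and 847 (8.23%) at least 2-fold lower. The monocytes were chosen for monocyte genes and for few macrophage genes and markers, and the LAMs for the markers. Differences in these kinds of genes follow in part from the choices, so the ratios to monocytes are a description. Over both mice together the highest ratios were those of Syngr1 (45.7 and 0.212 CPM, 216), Ctsk (165), the aldo-keto reductase Akr1b8 (91.7), the interleukin 7 receptor gene Il7r (87.9 and 1.11 CPM, 79.2), Gdpd1 (41.6), the tetraspanin Cd63 (1338 and 32.7 CPM, 40.9), Rhoc (40.5), Cd63-ps (39.1), whose reads may be shared with Cd63, Blnk (37.7), Sdc1 (36.5), the growth factor gene Igf1 (670 and 18.4 CPM, 36.4) and Cadm1 (28.5). The order of the first 3 was not resolved, since Syngr1 rested on 4 monocyte counts (interval 83.9 to 794), Ctsk on 6 (75.5 to 452) and Akr1b8 on 16 (56.2 to 161). By mouse the ratio of Syngr1 was 391 (69.7 to 15466) in Egr2fl/fl, with 1 monocyte count, and 161 (54.4 to 785) in Lyz2Cre/+.Egr2fl/fl, with 3. For Ctsk these ratios were 523 (93.4 to 20691), with 1 monocyte count, and 83.8 (35.4 to 261), with 5. The ratio of Akr1b8 was 41.5 (24.5 to 76.4) in Egr2fl/fl and 485 (134 to 4020) in Lyz2Cre/+.Egr2fl/fl, the latter with 2 monocyte counts, while Il7r stood at 79.9 and 76.7 in the same order. Among the lowest ratios were those of Serpinb10 (0.221 and 107 CPM), Ly6a2, Plac8 (154 and 6783 CPM, 0.0226), Tppp3, Cd177, Ifitm6 (25.5 and 915 CPM) and Gm9733.

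By list, 16 of 17 LAM genes outside the choice were at least 2-fold higher than in monocytes (median 6.34, against 0.986 over all genes tested), with Lpl at 2928 and 284 CPM (10.3) and Trem2 at 942 and 179 CPM (5.28). Of 21 lysosome genes 10 were higher and 0 lower (median 1.98), of 18 lipid genes 10 were higher and 2 lower (2.57), and of 11 growth factor and repair genes 9 were higher and 1 lower (4.24). Of 8 MHC class II genes 5 were higher (2.77), with H2-Aa at 4509 and 972 CPM. All 6 Ly6Chi monocyte genes that the gate had not used were lower (0.0532), as were 8 of 10 neutrophil genes and 6 of 9 interferon genes. The 17 inflammatory cytokine and chemokine genes were split, with 4 higher and 6 lower. Of 9 Kupffer cell genes tested 7 were higher and 0 lower (3.19). Of the 86 listed LAM marker genes, 21 of 77 tested were higher and 16 lower (1.07), and of the scar-associated macrophage signature 23 of 39 were higher and 4 lower (2.57).

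**Figure D3:**
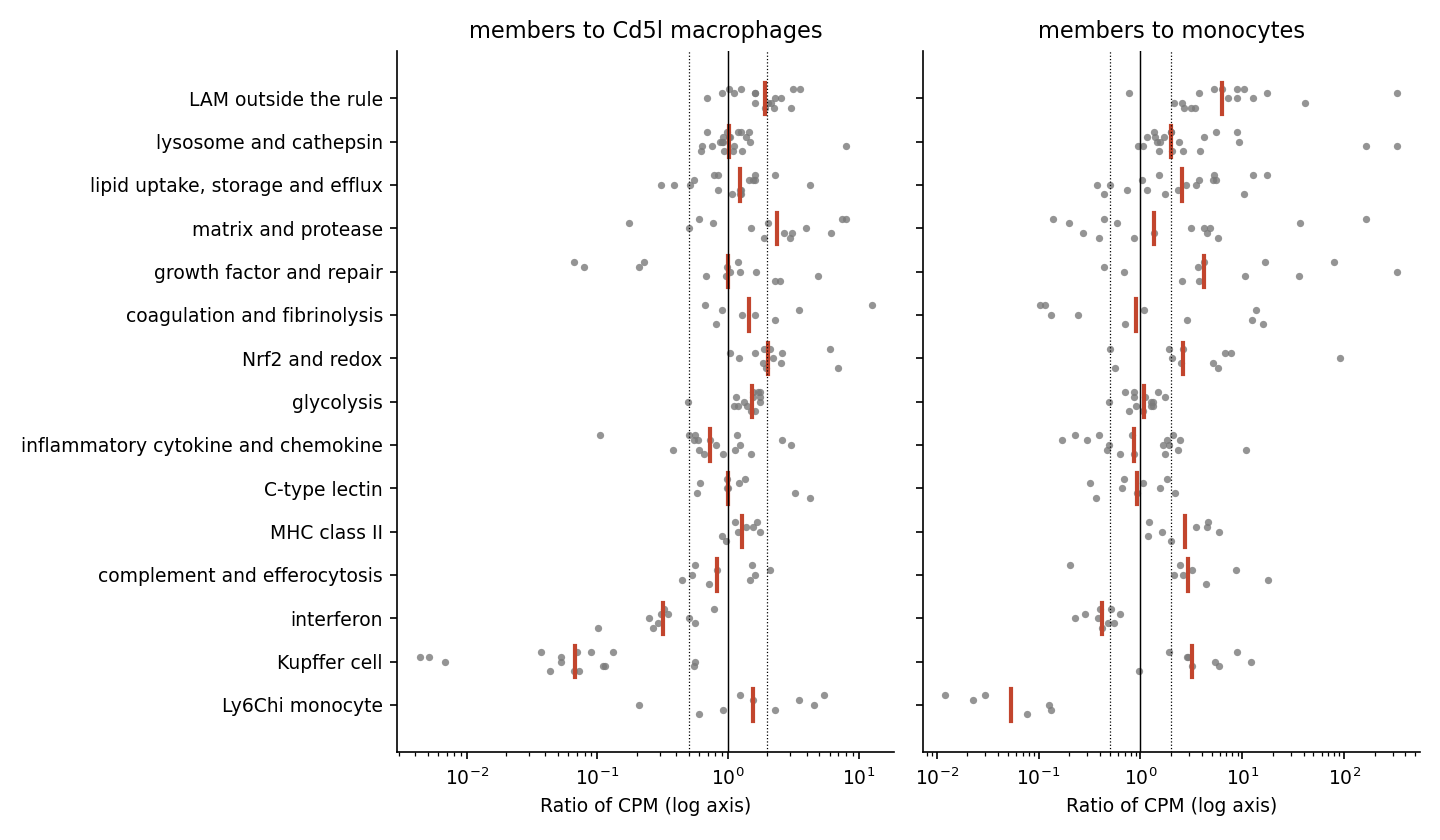
Ratio of CPM in LAMs ("members") to CPM in macrophages with Cd5l (left) and in monocytes (right), on log axes, with 1 gray point per tested gene, a red bar at the median of each gene list and dotted lines at 2-fold. The Kupffer cell list lies lowest at the left (median 0.0677) and the Ly6Chi monocyte list lowest at the right (0.0532), while the lysosome list lies near 1 at the left (1.02) and near 2 at the right (1.98).

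Between the genotypes, LAMs of the CDA-HFD Lyz2Cre/+.Egr2fl/fl mouse held less Egr2, the gene the Cre was to delete, at 25.8 CPM (13.7% of cells) against 73.8 CPM (37.0%) in the CDA-HFD Egr2fl/fl mouse (ratio 0.350, 0.288 to 0.422). In the same mice the ratio was 0.0433 in macrophages with Cd5l, 0.101 in macrophages with Tmem119, 0.240 in macrophages with Slc7a11 and 0.395 in monocytes. In the Lyz2Cre/+.Egr2fl/fl LAMs 1 cell supplied 17.8% of the Egr2 counts, and the ratio was 0.304 without the LAM with the most Egr2 counts in each mouse. Whether the counted reads lie in the deleted part of Egr2 is not given in the sources used here, so a residual count does not tell deleted from intact cells. Lyz2, the locus that holds the Cre, stood at 12872 and 6123 CPM in LAMs (ratio 0.476), and between 0.520 and 0.569 in the 4 other groups.

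Of 8186 genes with at least 100 counts in LAMs, 454 (5.55%) were at least 1.5-fold higher in the Lyz2Cre/+.Egr2fl/fl mouse and 323 (3.95%) at least 1.5-fold lower. A gene that reached 100 counts only through the mouse in which it was higher had to differ, so counts of genes past the fold, here and by list, are a description. Scaling by edgeR's TMM factors in place of total counts turned this split into 345 higher and 398 lower. In all other cells of the 2 mice 18 of the 454 and 24 of the 323 were also past 1.5-fold in the same direction, or 3.96% and 7.43%, against 0.440% and 0.574% of all 8186 genes. Without the single LAM with the most counts of a gene in each mouse, 378 of the 454 (83.3%) and 320 of the 323 (99.1%) were past the fold.

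Genes lower in the Lyz2Cre/+.Egr2fl/fl LAMs were led by Vsig8, at 70.5 and 10.7 CPM (ratio 0.152, 0.113 to 0.20). Vsig8 was lower still in the macrophages with Cd5l (0.0317) and with Tmem119 (0.0248). The heat shock genes Hspa1b (163 and 38.5 CPM, 0.236) and Hspa1a (564 and 145 CPM, 0.258), near-identical copies whose reads may be shared, were low throughout this mouse, with ratios of 0.134 to 0.283 in the 4 other groups. The adapter gene Scimp (20.05 and 6.32 CPM, 0.315), Gbp2 (0.367), Dnmt3aos (0.370), Clec1b (0.403) and Ltbp3 (0.409) were also among the lowest, and so was Zfp90 (30.9 and 10.9 CPM, 0.354), whose ratio in all other cells was 0.994. Dnmt3aos is antisense to Dnmt3a, and whether the counting kept the strands apart is not given in the sources used here. Of the genes on which the study rests, Itgax stood at 194 and 111 CPM in LAMs (0.575, 0.522 to 0.632), found in 71.8% and 43.6% of cells. Over all cells of the 2 mice, LAMs among them, Itgax was also lower, at 156 and 106 CPM in 43.3% and 35.0% of cells. Clec4e, which encodes Mincle, at 169 and 168 CPM (0.993) and Trem2 at 950 and 930 CPM (0.979) were not past 1.5-fold.

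Genes higher in the Lyz2Cre/+.Egr2fl/fl LAMs included monocyte and interferon genes. Ly6c2 stood at 54.5 and 147 CPM (ratio 2.70, 2.4 to 3.04) and Chil3, a chitinase-like gene of monocytes, at 71.8 and 176 CPM (2.46, 2.22 to 2.73). Of 8 Ly6Chi monocyte genes tested 6 were at least 1.5-fold higher (Ly6c2, Chil3, Plac8, Ms4a4c, F13a1 and Gm9733) and 0 lower (median ratio 1.66, against 1.04 over all genes). The monocyte chemokine receptor gene Ccr2 stood at 246 and 244 CPM. All 10 monocyte genes had counts in the LAMs of each mouse, and they summed to 694 and 1030 CPM, against 4062 and 4919 CPM over all cells of the 2 mice. The part of monocytes or of their RNA in these values was not tested. In monocytes themselves, which were chosen in part by counts of these genes, the ratio was 0.993 for Ly6c2 and 1.07 for Chil3. Among the genes ranked by the same limits as the lowest, Hist1h2ap had the highest ratio (7.44 and 42.7 CPM, 5.73). However, 1 cell supplied 57.0% of its counts in the Lyz2Cre/+.Egr2fl/fl mouse and the ratio without the top cells was 2.73. Histone copies of this family also share sequence. Ncapg2 (2.68), Wdfy1 (2.66), Sh3bp5 (2.63), Oas3 (2.46), Mthfd2 (2.30), Slfn8 (2.2) and Dcxr (2.2) completed the highest 10, and of these Wdfy1 was also higher in all other cells (2.15).

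Of 8 interferon genes tested 6 were higher, among them Oasl1, which reached 100 counts only through this mouse, and 1, Cxcl10, was lower, with Isg15 at 46.1 and 83.1 CPM (1.80) and Irf7 at 53.8 and 95.5 CPM (1.78). LAMs with counts for at least 3 of 10 interferon genes made up 14.5% and 23.8% of the LAMs, and cells with as many made up 15.3% and 23.5% of all cells of the 2 mice. Of 10 proliferation genes 5 reached 100 counts, and 3 of these (Birc5, Pclaf and Ube2c) reached it only through the mouse in which they were higher, so no count or median is read from this list. Stmn1 stood at a ratio of 1.45 and Tubb5 at 1.10. The LAMs with at least 3 proliferation genes numbered 24 (7.27%) and 18 (7.93%). Of 9 Kupffer cell genes 4 were higher (Marco, which passed the count minimum only through this mouse, Cd207, Spic and Folr2) and Clec1b was lower. Cd207, which encodes langerin, stood at 29.4 and 105 CPM (3.59) in 7.58% and 8.81% of LAMs, with 46.8% of its Lyz2Cre/+.Egr2fl/fl counts in 1 cell. Marco rested on 1 cell that held 92.9% of its counts in that mouse, and stood at a ratio of 0.299 without the top cells.

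Over all 8186 genes 5.55% were at least 1.5-fold higher and 3.95% at least 1.5-fold lower between the genotypes. None of 21 lysosome genes, 11 Nrf2 and redox genes or 14 glycolysis genes was past 1.5-fold in either direction, and of 18 LAM genes outside the choice only Itgax was (median ratio 0.974). Of the 86 listed LAM marker genes 4 of 80 tested were higher and 3 lower (1.01), and of the scar-associated macrophage signature 0 of 41 were higher and 3 lower (0.979). Of 19 lipid genes only Dgat1, the last enzyme of triglyceride synthesis, was past 1.5-fold (14.8 and 8.23 CPM, 0.557), and 1 of 18 and 1 of 19 genes are shares near those of all genes. Of 12 matrix and protease genes 3 were lower, Mmp19 (88.5 and 46.7 CPM, 0.528), Fn1 (198 and 107 CPM, 0.538) and Sdc1 (68.4 and 36.2 CPM, 0.529). Of 12 growth factor and repair genes 1, Chil3, was higher and 2 were lower (median 0.945). These were Vegfa, at 58.8 and 27.4 CPM (0.465), and Hbegf, which stood at 18.5 and 1.91 CPM and had counts in only 1 LAM of the Lyz2Cre/+.Egr2fl/fl mouse. Of 8 coagulation genes 3 were higher, among them F13a1 (1.73) and Thbd (1.85), and 1, Tfpi (0.348), the inhibitor of the factor VIIa pathway, was lower.

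Genes of recognition and antigen presentation are given beside the 3.95% of all genes that were lower. The beta-glucan receptor gene Clec7a stood at 1271 and 718 CPM (0.565), the 1 of 9 C-type lectin genes past the fold (median of the list 1.10). Of 11 complement and efferocytosis genes 2 were lower (median 0.911), the first complement component genes C1qa (1398 and 824 CPM, 0.589) and C1qc (1353 and 888 CPM, 0.656), while the ratios of C1qa and C1qc in all other cells were 1.05 and 1.11. Of 8 MHC class II genes 3 were lower, H2-DMb1, H2-DMb2 and their regulator Ciita (33.1 and 16.8 CPM, 0.508), and the median of the list was 0.727. Of 15 inflammatory cytokine and chemokine genes Ccl6 (1386 and 846 CPM, 0.610) and Cxcl10 were lower and Ccl24 (1.5, and 1.44 without the top cells) and Cxcl1 higher, Cxcl1 with 41.0% of its Lyz2Cre/+.Egr2fl/fl counts in 1 cell. Of 18 macrophage transcription factor genes Bhlhe40 was lower (99.6 and 57.4 CPM, 0.576).

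**Figure D4:**
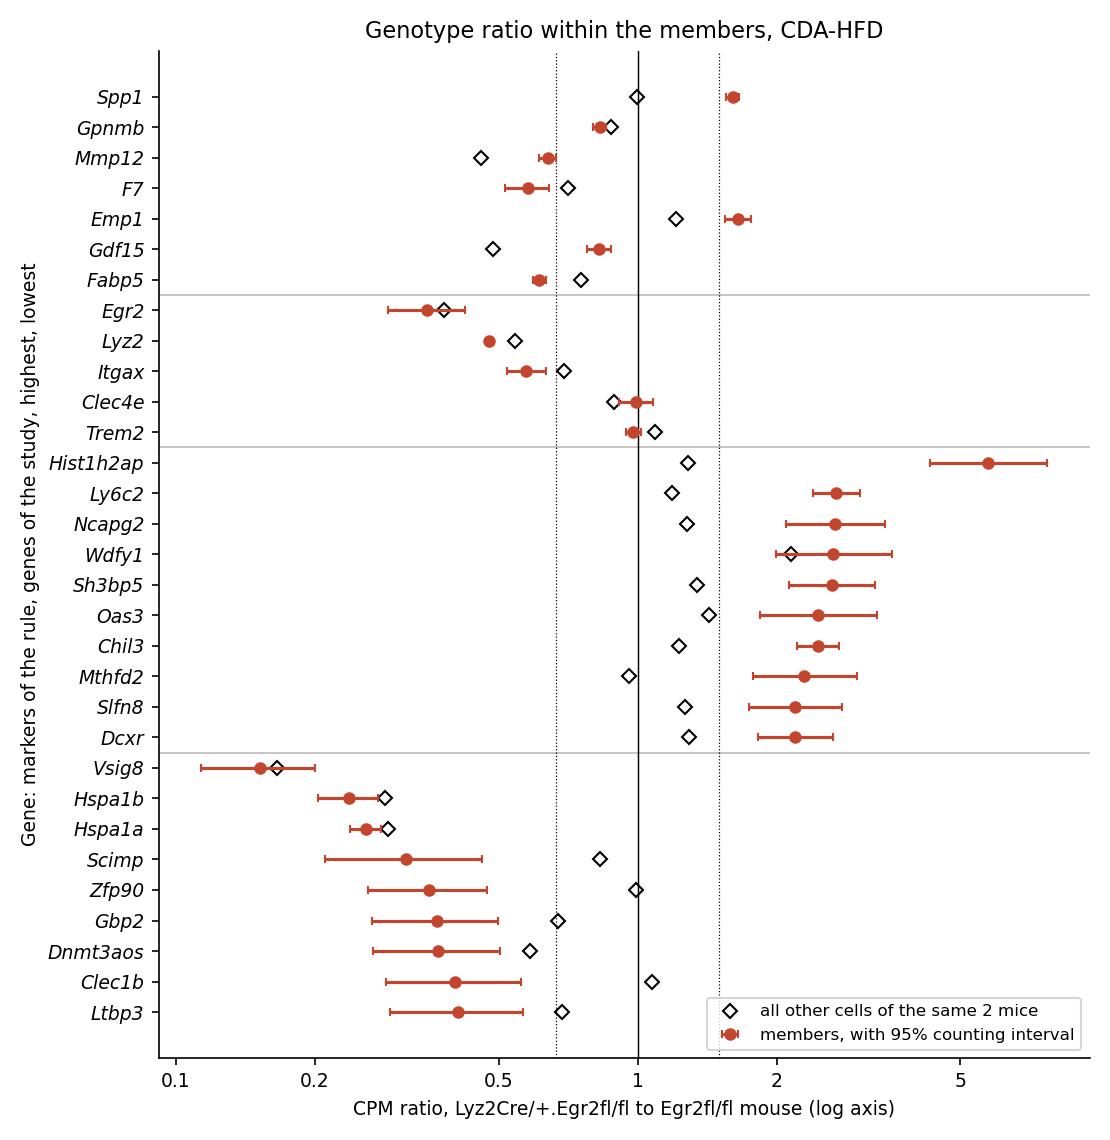
Ratio of CPM in the CDA-HFD Lyz2Cre/+.Egr2fl/fl mouse to CPM in the CDA-HFD Egr2fl/fl mouse (log axis) in LAMs (red points, with 95% counting intervals) and in all other cells of the same 2 mice (open diamonds), for the 7 markers, 5 genes of the study, and the 10 highest and 10 lowest genes, where Egr2 is drawn once. Spp1 lies at 1.61 in LAMs and 0.999 in other cells, while Vsig8, Hspa1a and Hspa1b are low in both.

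Within the LAMs 3 sub-clusters were found by Leiden clustering, each with cells of both mice. The leading genes of a sub-cluster are the ones that formed it and are given as a description. Sub-cluster 1 held 216 cells, 41.5% of the LAMs of the CDA-HFD Egr2fl/fl mouse (36.1% to 47.0%) and 34.8% of those of the CDA-HFD Lyz2Cre/+.Egr2fl/fl mouse (28.6% to 41.4%). It was led by Stmn1 (92.6 CPM against 14.1 in the other LAMs), Retsat, Fut7, Ccnd1, the proton pump subunit Atp6v0d2 and the fatty acid carrier Fabp7 (344 and 95.6 CPM). These cells carried the most Gpnmb (1477 and 779 CPM) and Trem2 (1199 and 756 CPM) and little Clec4e (39.3 and 262 CPM).

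Sub-cluster 2 held 209 cells, 33.9% (28.8% to 39.3%) and 42.7% (36.2% to 49.4%) of the LAMs, and was led by the monocyte genes Plac8 (363 and 42.8 CPM) and Ly6c2 (204 and 29.99 CPM), with Ptgs2, Nr4a2, Thbs1 and Traf1. Its 8 MHC class II genes summed to 30827 CPM against 16459 in the other LAMs, its 7 neutrophil genes to 676 against 188 CPM, and Mmp12 stood at 248 against 1124 CPM. Sub-cluster 3 held 132 cells, 24.5% (19.998% to 29.6%) and 22.5% (17.2% to 28.5%), and was led by Ptgr1 (351 and 48.7 CPM), Akr1b8 (222 and 33.5 CPM), Slpi, Acss2, Procr (95.3 and 17.4 CPM) and Prkar2b. It carried the most Spp1 (1634 and 955 CPM) and Mmp12 (1907 and 490 CPM), its 12 Nrf2 and redox genes summed to 15070 against 4169 CPM, and the chemokine receptor gene Ccr2 stood at 86.1 against 294 CPM. The intervals of the 2 mice overlapped in each sub-cluster. Of the LAMs, 70 had counts for all 3 of Slc7a11, Srxn1 and Il1rn.

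Leaving sub-clusters out changed some genotype ratios. Without sub-cluster 2 the ratio of Spp1 was 1.48, against 1.61 in all LAMs, while Chil3 stood at 2.10 and Egr2 at 0.237. Ly6c2 stood at 1.28, against 2.70, but Ly6c2 leads the sub-cluster left out, so this value follows from which cells were taken away. Gbp2 then stood at 0.670 and Clec4e at 0.665, and without sub-cluster 3 the ratio of F7 was 0.738. At a lower Leiden resolution of 0.3 the LAMs formed 1 cluster and at a higher one of 1.0 they formed 7, so the number of sub-clusters follows the setting. With 15 principal components 3 sub-clusters were found again, which kept between 62.7% and 98.5% of the cells of a sub-cluster together, while resolution 1.0 kept between 34.0% and 65.9%.

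**Figure D5:**
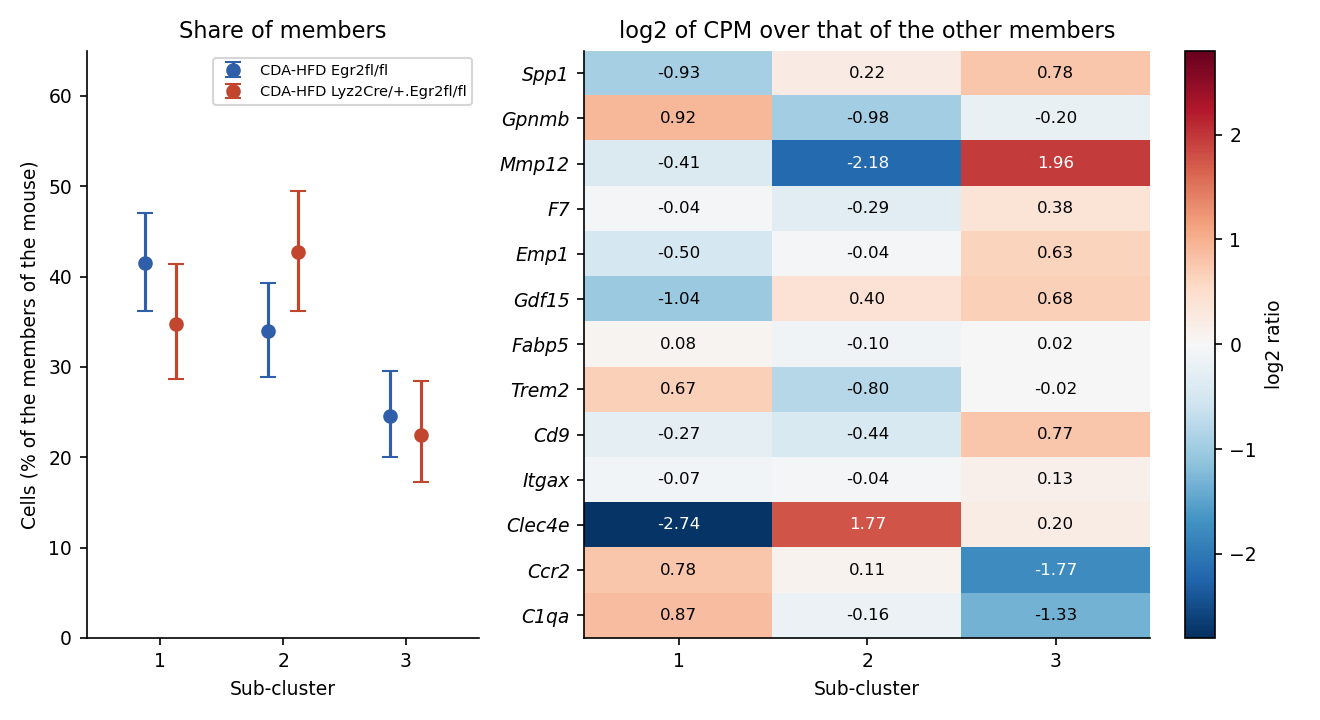
Left, share of each mouse's LAMs ("members") in the 3 sub-clusters (percent, with exact 95% intervals). Right, log2 of the CPM of a gene in a sub-cluster over its CPM in the other LAMs, in red where higher and in blue where lower. Mmp12 is highest in sub-cluster 3 (1907 CPM) and lowest in sub-cluster 2 (248 CPM), and Clec4e is lowest in sub-cluster 1 (39.3 CPM).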

How the data were processed

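Single-cell RNA-seq of sorted liver cells was made with BD Rhapsody beads and TAS-Seq. The authors mapped reads to a GRCm38-101 transcriptome, split barcodes by hashtag and deposited 2 tables of counts, one of mRNA counts per gene and cell and one of hashtag counts per cell, and the submitters' processing notes list Seurat 4.1.1 and R 4.2.1. Whether the deposited counts are collapsed by molecular identifier is not given in the sources used here. The hashtag table also has 7 columns that no label ties to these mice, and they were not used.

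The mRNA table held 16786 barcodes and 25909 genes. The 1392 barcodes (8.29%) that the authors named doublets were left out, doublets within a mouse were not sought, and the 25% mitochondrial limit left 15384 of the 15394 remaining cells, the latter being the cell number of the study. In 28 genes no value from 1 to 4 occurs, among them Mmp12 and Cd5l of the LAM choice, and Lyz2, C1qa, Clec4f, Plac8 and S100a9.

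Counts were summed over the cells of a group and mouse and divided by the summed total (CPM). Genes needed at least 100 counts, and a ratio was called past the fold at 1.5 between genotypes and at 2 between groups of cells. Ratios have binomial and levels Poisson intervals. No test was run, since each group held 1 mouse. Sub-clusters came from 2000 variable genes, 30 principal components, 15 neighbors and Leiden clustering at resolution 0.5. Python 3.11.15, numpy 2.4.6, scipy 1.17.1, leidenalg 0.10.2, R 4.3.3 and edgeR 4.0.16 (TMM factors as an alternative scaling only) were used, and the interval scripts were tested on simulated data.

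Named genes were the 12 of the choice, list members past the fold or among the 4 highest, the 10 highest and 10 lowest genotype ratios (200 counts, 10% of cells), the 12 highest and 8 lowest ratios between groups (500 counts, 20% of cells), 6 leading genes per sub-cluster, and Egr2, Lyz2, Itgax, Clec4e and Trem2. Some genes that the rule or a gate holds are not reported here. Ratios of single genes outside this rule were added after their values were seen. The LAM choice and the gene lists were made with earlier results of these data known. Alternatives are other marker numbers and marker sets, mitochondrial limits, thinning, scalings and count minimums.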

Additional observations from a re-analysis of the deposited data

Results flagged for a closer look

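For 4 genes the ratio of the CDA-HFD Lyz2Cre/+.Egr2fl/fl to the CDA-HFD Egr2fl/fl mouse was past 1.5-fold in LAMs and past it in the opposite direction in another group of cells of the same mice. The difference between the 2 ratios was not tested, as each genotype was 1 mouse. Spp1 and Emp1 are also markers of the LAM choice. Macrophages with Cd5l were not chosen by these markers, and monocytes were chosen for few of them. The LAM ratios of Spp1 and Emp1 therefore depend on the choice and are given as a description. No opposite genotype effect is read from them. Spp1 stood at a ratio of 1.61 in LAMs and of 0.463 (0.435 to 0.492) in macrophages with Cd5l, where its level was 622 and 288 CPM. Emp1 stood at 1.65 in LAMs and at 0.551 (0.421 to 0.719) in monocytes, where it was low (16.9 and 9.32 CPM). Ly6c2 stood at 2.70 in LAMs and at 0.563 (0.410 to 0.771) in macrophages with Cd5l (22.5 and 12.7 CPM). Chil3 stood at 2.46 in LAMs and at 0.488 (0.406 to 0.585) in macrophages with Cd5l (70.5 and 34.4 CPM).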

How the results depend on the processing

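The lower LAM share in the CDA-HFD Lyz2Cre/+.Egr2fl/fl mouse kept its direction under all 16 alternatives, from -1.43 points without Mmp12 among the markers to -2.41 points with an own hashtag share of at least 90%, apart from -2.83 points with at least 3 markers and -6.46 points among gated macrophages. Counts of genes past the fold followed the count minimum. With at least 20 counts 1293 genes were higher and 1050 lower between genotypes, 569 and 1124 against macrophages with Cd5l, and 1453 and 1559 against monocytes. With at least 500 counts the numbers were 46 and 52, 122 and 199, and 356 and 493, and at 2-fold between genotypes 73 and 54. The number of sub-clusters was 1 at resolution 0.3 and 7 at resolution 1.0. A count minimum cannot move the ratio of a single gene, and TMM scaling moves all of them by 1 factor. Of the single-gene genotype ratios under the alternatives set at the start 12 dropped below the fold, 6 of them against the 2-fold threshold, and the others being Mmp12 (0.806), Fabp5 (0.80), F7 (0.680), Clec1b (0.75) and Emp1 (1.46) among LAMs with at least 5 markers and Fabp5 (0.704) without the tenth of LAMs with the most counts, and 3 that were not past the fold moved across 1, Clec4e (1.04) and Gdf15 (1.02) with at least 5 markers and Clec4e (1.01) without the LAMs with the most counts. Leaving out each sub-cluster or the top cell was chosen after seeing the data. The Egr2 ratio of LAMs to macrophages with Cd5l was 2.76 in all and 1.6 in the Egr2fl/fl mouse and 12.9 in the Lyz2Cre/+.Egr2fl/fl mouse alone. No paired analysis was possible because each group held 1 mouse.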

Other observations

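In macrophages with Slc7a11, the cells outside the LAM choice that carried all of Slc7a11, Srxn1 and Il1rn, Clec4e stood at 1121 CPM, F10 at 418 CPM and Ass1 at 322 CPM, against 168, 211 and 72.1 CPM in LAMs, while Gpnmb stood at 48.8 CPM against 1073 CPM. Of the cells with 3 markers, 40 belonged to this group.

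Marker pairs in LAMs also differed in frequency between the mice. LAMs were chosen for carrying several of these markers together. The frequencies of pairs thus follow in part from the choice and from how many LAMs carried each marker. They are given as a description. Mmp12 and F7 were counted together in 57 of 330 LAMs (17.3%) of the CDA-HFD Egr2fl/fl mouse and in 18 of 227 LAMs (7.93%) of the CDA-HFD Lyz2Cre/+.Egr2fl/fl mouse. Spp1 and Mmp12 were counted together in 90 (27.3%) and 33 (14.5%) LAMs. Pairs with Emp1 were more frequent in the Lyz2Cre/+.Egr2fl/fl mouse for Spp1 (46.7% and 59.5%), Gpnmb (66.7% and 78.4%) and Fabp5 (61.5% and 74.9%), and less frequent for Mmp12 (29.1% and 20.3%), F7 (31.5% and 26.9%) and Gdf15 (39.1% and 38.3%).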
